A study of Homo sapiens with 9 samples.

Results

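PD184352, an inhibitor of the MEK kinases, was compared with its solvent DMSO in A375P cells, an established human melanoma line with a mutant RAF kinase, after 2, 6 and 24 h. The comparison takes 6 of the 9 arrays of the series: 3 PD184352 arrays (1 µM) and 3 DMSO arrays, paired by time. The 3 arrays with PLX4720 (0.4 µM), an inhibitor of the mutant RAF kinase, add to the estimate of spread in the test over the 3 times. They also enter the mean level by which the row of each gene and the genes bright enough were chosen. All groups are this 1 line, in medium with serum, penicillin and streptomycin, so nothing here speaks for other lines. The array rows that name exactly 1 gene numbered 19380 of 35446. They give 17047 genes, of which 12785 were bright enough to be tested. Each treatment and time has 1 deposited array. The series' design text speaks of triplicates, and no source used here says whether a column averages them. There are therefore no replicates of a treatment at a time, and differences at a single time carry no test.

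MEK phosphorylates and activates ERK, which enters the nucleus and raises the transcription of immediate-early factors, of growth genes such as cyclin D1 and of its own inhibitors. Those inhibitors, the dual-specificity phosphatases and the Sprouty and SPRED proteins, form a feedback loop, so their transcript levels are widely used as a readout of ERK output. In melanoma with a mutant RAF kinase this pathway runs without outside growth factors and drives entry into the cell cycle. The study set out to find direct transcriptional targets of this pathway.

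Levels are array intensities as deposited, not on a log scale, and intensities of different genes are not comparable. Changes are given as log2 differences, PD184352 minus DMSO of the same time, computed on log2(intensity + 1), where −1 is 2-fold lower and 1 is 2-fold higher. The median intensity lay between 98.96 and 102.4 on all arrays. The 99th percentile was 1552 to 1654 on the PD184352 arrays and 1681 to 1754 on the DMSO arrays. Of the genes at least 2-fold apart at 24 h, 69.7% were lower, and 62.2% after quantile normalization. The part of the 99th percentile in the excess of lower values was not tested further. Of the 14 melanocyte genes with a row, 12 passed the filter on dim genes, among them the lineage factors MITF and SOX10 and the pigment genes PMEL and MLANA, while the pigment gene TYRP1 and the receptor gene KIT did not. Of the markers of other cell types with a row, 3 of 5 passed for keratinocytes, 2 of 6 for immune cells, 5 of 6 for endothelium and 7 of 8 for fibroblasts, so the filter does not set the melanocyte list apart from the last 2. The summed intensity (log2) of keratinocyte markers was 9.24 to 9.35 with DMSO and 9.22 to 9.30 with PD184352, and that of immune markers 8.31 to 8.61 and 8.55 to 8.65. The sums of endothelial markers were 9.66 to 9.73 and 9.55 to 9.66, and those of fibroblast markers 9.57 to 9.64 and 9.65 to 9.75. Neither overlapped between the groups, the first lower and the second higher with PD184352, where the arrays of 15.2% of all genes did not overlap. For endothelial markers the margin was small, 9.664 as the lowest DMSO sum against 9.662 as the highest PD184352 sum. The part of these markers in the results was not tested. Melanocyte markers summed to 12.7 on every DMSO array and to 12.5 to 13.1 with PD184352. A level in bulk RNA cannot tell fewer cells of a type from less RNA per cell.

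The response widened with time. Among the genes tested it began with lower levels, while with no filter on dim genes 8 were 2-fold lower and 6 higher at 2 h. At 2 h, 5 of 12785 genes were at least 2-fold lower with PD184352 (0.0391%) and 0 were at least 2-fold higher. At 6 h, 54 were lower (0.422%) and 5 were higher (0.0391%). At 24 h, 403 were lower (3.15%) and 175 were higher (1.37%). The same count between DMSO arrays of different times was 0 for 6 h against 2 h, 6 for 24 h against 2 h and 1 (0.00782%) for 24 h against 6 h. Over all genes the median difference was −0.051 at 2 h, −0.0031 at 6 h and −0.0035 at 24 h.

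**Figure D1:**
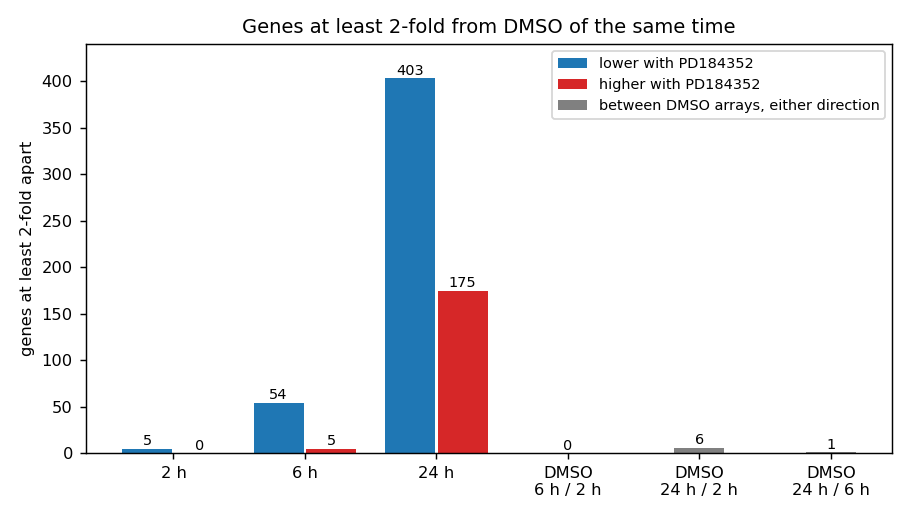
Number of genes at least 2-fold from DMSO of the same time (bars on the left, lower in blue and higher in red) and between DMSO arrays of different times (grey). The count of lower genes goes from 5 to 54 to 403 and that of higher genes from 0 to 5 to 175, while DMSO arrays differ in at most 6 genes.

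The genes already 2-fold lower at 2 h were 3 feedback inhibitors, IER3 and PPT2. DUSP6, the phosphatase that acts on ERK itself (transcript cluster 3464860), had intensities of 1492, 1686 and 1561 with DMSO at 2, 6 and 24 h, and 193.2, 100.6 and 113.8 with PD184352. SPRY2, a Sprouty inhibitor of signalling from receptors to the RAF kinases, stood at 1193, 1294 and 1034 with DMSO and at 211.2, 100.8 and 95.4 with PD184352. SPRY4, of the same family, stood at 1290, 1869 and 1910 with DMSO and at 337.5, 89.99 and 88.2 with PD184352. In all 3 genes every PD184352 array lies far below every DMSO array, and the 6 h and 24 h levels are close together. At 2 h the log2 differences were −2.94 for DUSP6, −2.49 for SPRY2 and −1.93 for SPRY4, and at 6 h they were −4.05, −3.67 and −4.36.

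IER3, a stress and survival gene induced by ERK, stood at 2103, 2312 and 2040 with DMSO and at 717.2, 566.1 and 711.3 with PD184352. Its difference of −1.55 at 2 h was close to that at 24 h, −1.52. PPT2, a lysosomal thioesterase, was at −1.07. For PPT2 the DMSO arrays themselves ran from 422.6 at 2 h to 252.5 at 6 h and 326.2 at 24 h, and the PD184352 values of 200.5, 309.0 and 470.9 overlap them. It was 0.29 above DMSO at 6 h and 0.53 above it at 24 h.

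**Figure D2:**
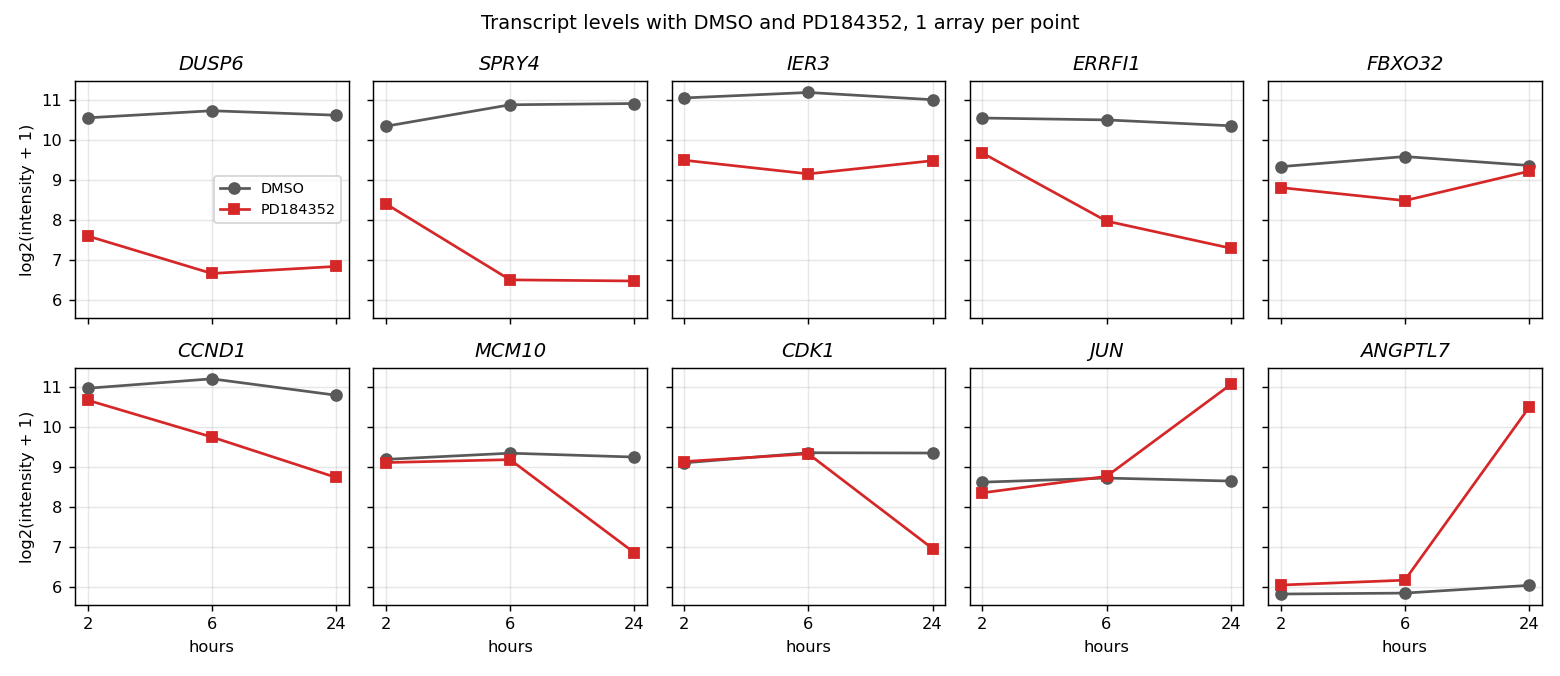
Level of 10 genes, log2(intensity + 1), with DMSO (grey circles) and PD184352 (red squares) at 2, 6 and 24 h, evenly spaced, 1 array per point. DUSP6, SPRY4 and IER3 are low from 2 h, ERRFI1 and CCND1 continue down to 24 h, FBXO32 is back near DMSO at 24 h, and MCM10, CDK1, JUN and ANGPTL7 part from DMSO at 24 h.

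All 10 ERK feedback inhibitors had their 3 PD184352 arrays below their 3 DMSO arrays. Over all genes tested this held for 1416 (11.1%), and 533 (4.17%) had them all above, so that the arrays were apart in 1949 (15.2%). That split is 871 and 809 after quantile normalization, so the share of lower genes, 72.7%, becomes 51.8%. At least 2-fold lower were 3 feedback genes of 10 at 2 h, 6 at 6 h and 4 at 24 h. Over all genes 0.0391%, 0.422% and 3.15% were. At least 1.5-fold lower were 4 at 2 h, where 0.305% of all genes were, 8 at 6 h (1.56%) and 6 at 24 h (8.79%). The list's median difference was −0.45, −1.09 and −0.95. The range within the list was wide. SPRED1, an inhibitor of RAF activation, was at −0.02, −1.15 and −1.55. Its relative SPRED2 was at −0.54, −1.32 and −0.99. The nuclear phosphatase DUSP4 was at −0.63, −1.02 and −0.91. DUSP5 (−0.29, −0.82 and −0.49) and the cytoplasmic phosphatase DUSP7 (−0.37, −0.60 and −0.29) were lowest at 6 h and closer to DMSO at 24 h. SPRY1 reached only −0.47 and SPRED3 only −0.20, both at 6 h. The list was chosen with earlier results of these data known.

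A test over the 3 times, with time as a block, called 6 genes (0.0469% of 12785), all lower, by limma with Benjamini-Hochberg adjustment. DUSP6 fell by 3.59 on the log2 scale (SE 0.32, adjusted p = 0.0452), SPRY2 fell by 3.2 (SE 0.29) and IER3 fell by 1.70 (SE 0.11, adjusted p = 0.0246). The others were TRIB1, a pseudokinase that scaffolds protein degradation (−0.98, SE 0.09), MYC, the growth-promoting transcription factor (−0.82, SE 0.07), and FAM43A (−0.75, SE 0.07). The adjusted p was 0.0452 for all but IER3. Each of the 6 genes was lower at 3 of 3 times, and their arrays did not overlap. Of all genes tested, 11.1% had their PD184352 arrays all below their DMSO arrays. The test itself favours genes that are lower alike at all times, so this adds no support to the calls. MYC stood at 325.6, 341.6 and 378.0 with DMSO and at 206.1, 188.5 and 196.2 with PD184352. TRIB1 stood at 542.1, 515.6 and 597.1 against 307.7, 286.9 and 245.9. FAM43A stood at 525.9, 472.2 and 437.8 against 331.4, 248.9 and 278.0.

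SPRY4, whose difference went from −1.93 to −4.42, had an adjusted p of 0.0895 in the same limma test. Without the DMSO 2 h array limma called 388 genes in place of 6. It called 81 without DMSO 24 h, 3 without PLX4720 24 h (DUSP6, IER3 and SPRY2) and 0 without DMSO 6 h, without PLX4720 2 h or 6 h, or without any PD184352 array, where 1109 to 2106 genes had an unadjusted p below 0.05. With the 6 DMSO and PD184352 arrays alone it was 0, with a smallest adjusted p of 0.424 and 1467 genes at an unadjusted p below 0.05. It was also 0 after quantile normalization (smallest adjusted p = 0.0832, with 1934 genes at an unadjusted p below 0.05). Over the 16 alternatives limma's adjusted p of IER3 ran from 3.64e-04 to 0.424 and that of DUSP6 from 0.00457 to 0.424. All 6 genes were lower in each of the 16. The arrays are not known to come from separate cultures, so p-values measure only the spread between these arrays. A difference from DMSO that varies with time, with PD184352 or with PLX4720, adds to that spread. Without replicates of a treatment at a time, the test cannot tell such a change from noise between arrays.

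At 6 h more genes were past 2-fold below DMSO, and those named here were below DMSO already at 2 h. ERRFI1, an inhibitor of the EGF receptor, stood at 1487, 1439 and 1300 with DMSO and at 812.6, 250 and 156.1 with PD184352, a difference of −0.87, −2.52 and −3.05. TGFA, a ligand of the same receptor, stood at 643.1, 776.6 and 551.7 with DMSO and at 468.9, 162.8 and 128.7 with PD184352. The arrays of both genes are fully apart, and in both the step between 2 h and 6 h was larger than that between 6 h and 24 h. SLC20A1, a phosphate transporter, was at −0.58, −2.03 and −2.18. FST, which binds activin, was at −0.47, −1.79 and −1.68. EPHA4, an ephrin receptor, was at −0.33, −1.65 and −1.29.

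For cyclin D1 and the PEA3 group of ETS factors the difference was larger at each later time. CCND1, the cyclin that starts G1 progression, stood at 1987, 2339 and 1762 with DMSO and at 1619, 855.8 and 425.1 with PD184352. ETV5 stood at 750.1, 775.0 and 795.2 with DMSO and at 501.3, 268.4 and 71.98 with PD184352, and its differences were −0.58, −1.53 and −3.45. ETV1 was at −0.37, −1.23 and −2.60. ETV4 was at −0.43 and −0.51 and then at −3.23. The PD184352 arrays of these 4 genes all lie below their DMSO arrays. The CCND1 difference of −0.30 at 2 h is smaller than the spread of its DMSO arrays, from 1762 to 2339. Of the 16 genes in the ERK output list, 3, 11 and 12 were at least 2-fold lower at 2, 6 and 24 h. Over all genes 0.0391%, 0.422% and 3.15% were. The list's medians were −0.44, −1.49 and −1.78. Its members overlap the feedback list in DUSP6 and SPRY2. Of the growth factors in it, HBEGF (−0.28, −0.32 and 0.41) and LIF (0.20, −0.33 and −0.22) did not reach 2-fold at any time. LIF was named after its values were seen.

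Higher levels were few at 6 h, and all 5 genes were higher again at 24 h. SLITRK6, a neuronal transmembrane protein, stood at 225.5, 310.8 and 275.6 with DMSO and at 264.1, 722.7 and 1256 with PD184352. BMF, a BCL2 family member that promotes cell death, stood at 172.9, 163.5 and 164.9 against 217.8, 346.1 and 697.2. CITED2, a transcriptional coregulator, was at 0.23, 1.10 and 1.22. The other two were LURAP1L (0.28, 1.02 and 1.18) and the noncoding LINC01531 (0.40, 1.16 and 1.13). For BMF, CITED2 and LINC01531 all PD184352 arrays lie above all DMSO arrays.

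Of the 54 genes at least 2-fold lower at 6 h, 54 were below DMSO at 2 h as well, where 61.5% of all genes were, and 17 of them by at least 1.5-fold. At 24 h, 53 of the 54 were again below DMSO, where 50.7% of all genes were, 32 (59.3%) by at least 2-fold, and 20 had a larger difference than at 6 h. These 32 are 7.94% of the 403 genes lower at 24 h. Across all 12785 genes, which are not independent replicates, the differences at 6 h and 24 h correlated with r = 0.525, those at 2 h and 6 h with r = 0.418, and those at 2 h and 24 h with r = 0.167. Each time has its own PD184352 and DMSO array, so no array is shared between these differences.

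**Figure D3:**
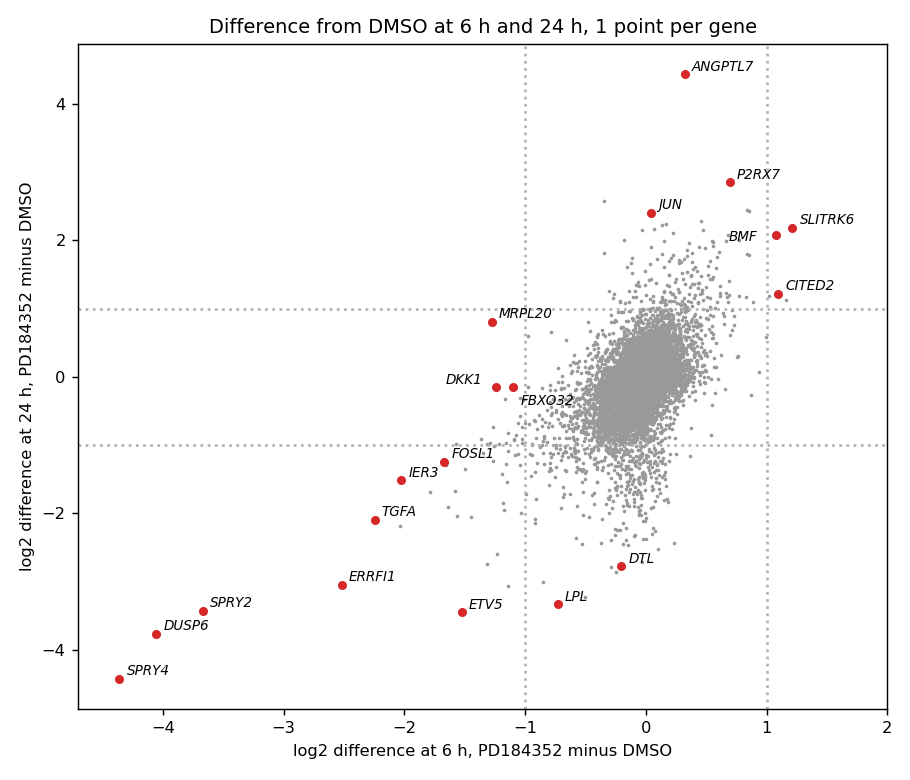
Log2 difference, PD184352 minus DMSO, at 6 h (horizontal) and 24 h (vertical) for all 12785 genes tested, with named genes in red and dotted lines at 2-fold. SPRY4, DUSP6 and SPRY2 are low at both times, DTL, LPL, JUN and ANGPTL7 differ mainly at 24 h, and DKK1, FBXO32 and MRPL20 are low at 6 h only.

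A few genes were low at 6 h and back within 1.5-fold of DMSO at 24 h. FBXO32, a muscle-atrophy ubiquitin ligase subunit and FOXO target, stood at 641.2, 764.1 and 654.4 with DMSO and at 446.9, 356.4 and 592.8 with PD184352. DKK1, a secreted inhibitor of Wnt signalling, stood at 163.7, 238.0 and 182.5 against 118.8, 100.1 and 163.7. PHLDA1 was at −0.70, −1.04 and −0.58, and TRIB2, a relative of TRIB1, was at −0.50, −1.02 and −0.34. The noncoding SH3TC2-DT was at −0.40, −1.16 and −0.32 and LINC02915 at −0.10, −1.04 and −0.31. In FBXO32, DKK1 and SH3TC2-DT the DMSO 6 h array was the highest of the 3 DMSO arrays, which adds to the 6 h difference. SH3TC2, the neighbouring coding gene, was at −0.47, −1.27 and −0.73.

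At 24 h the machinery of DNA replication was low as a group. All 31 replication genes tested, of 35 listed, were below DMSO, 23 by at least 2-fold (background 3.15%), and the median was −1.44. At 2 h and 6 h the medians were −0.08 and −0.06 and 0 of the 31 reached even 1.5-fold. MCM10, which helps start replication, stood at 581.4, 647.1 and 605.1 with DMSO and at 550.2, 578.9 and 115.2 with PD184352. CDC45, part of the replicative helicase, stood at 1112, 1205 and 1103 against 1139, 1135 and 219.9. Only the 24 h array departs in both genes. CLSPN, a checkpoint adaptor at the fork, was at −2.23 and RFC3, of the clamp loader, at −2.11. The smallest differences were those of PRIM2 (−0.49), a primase subunit, and RPA1 (−0.52), which coats single strands, both named after their values were seen. The median of the list moved by −0.07 between DMSO at 2 h and 24 h and by −0.13 between 6 h and 24 h.

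Genes of mitosis, recombination and nucleotide synthesis were also lower at 24 h. All 28 mitosis and kinetochore genes tested, of 33 listed, were at least 2-fold lower at 24 h, between −2.38 and −1.07, after medians of −0.09 at 2 h and −0.035 at 6 h. CDK1, the kinase that starts mitosis, stood at 547.3, 652.1 and 648.8 with DMSO and at 559.9, 640.2 and 123.8 with PD184352. TTK, a spindle checkpoint kinase, was at −2.01 and the condensin subunit NCAPH at −1.90. Of 11 recombination and Fanconi genes tested 9 were at least 2-fold lower at 24 h (median −1.66, after −0.09 and −0.10), led by the nuclease EXO1 (−2.33), XRCC2 (−2.31) and the helicase BLM (−2.14). Of 20 nucleotide synthesis genes tested 5 were at least 2-fold lower and 16 at least 1.5-fold lower, where 3.15% and 8.79% of all genes were. Their median was −0.07, −0.13 and −0.80, and 16 of the 20 were below DMSO already at 6 h, where 50.9% of all genes were. MTHFD2, of mitochondrial folate metabolism, was at −1.86 and RRM2, a ribonucleotide reductase subunit, at −1.71. Outside these lists stood DTL, a ubiquitin ligase subunit of the replication licensing control (1464 with DMSO and 213.2 with PD184352 at 24 h), and ERCC6L, a mitotic DNA translocase (435.6 and 65.8).

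Of the G1 genes tested, 6 of 8 were at least 2-fold lower at 24 h, where 3.15% of all genes were, with a median of −1.44. CDC25A, the phosphatase that activates CDK2, was at −0.30, −0.58 and −2.36, and CCNE2 at 0.03, −0.18 and −1.96. CCND1 was the single member past 2-fold at 6 h. Among 9 E2F genes and partners, E2F8 (−1.40) and E2F7 (−1.23), repressors of the family, were more than 2-fold lower, and 6 of 9 were at least 1.5-fold lower, where 8.79% of all genes were. Of the CDK inhibitors and pocket proteins, CDKN1A, the inhibitor p21, was at 0.28 and CDKN2D at −0.13 at 24 h. Of the 7 tested the pocket protein RBL1 was the single member past 2-fold (−1.17).

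**Figure D4:**
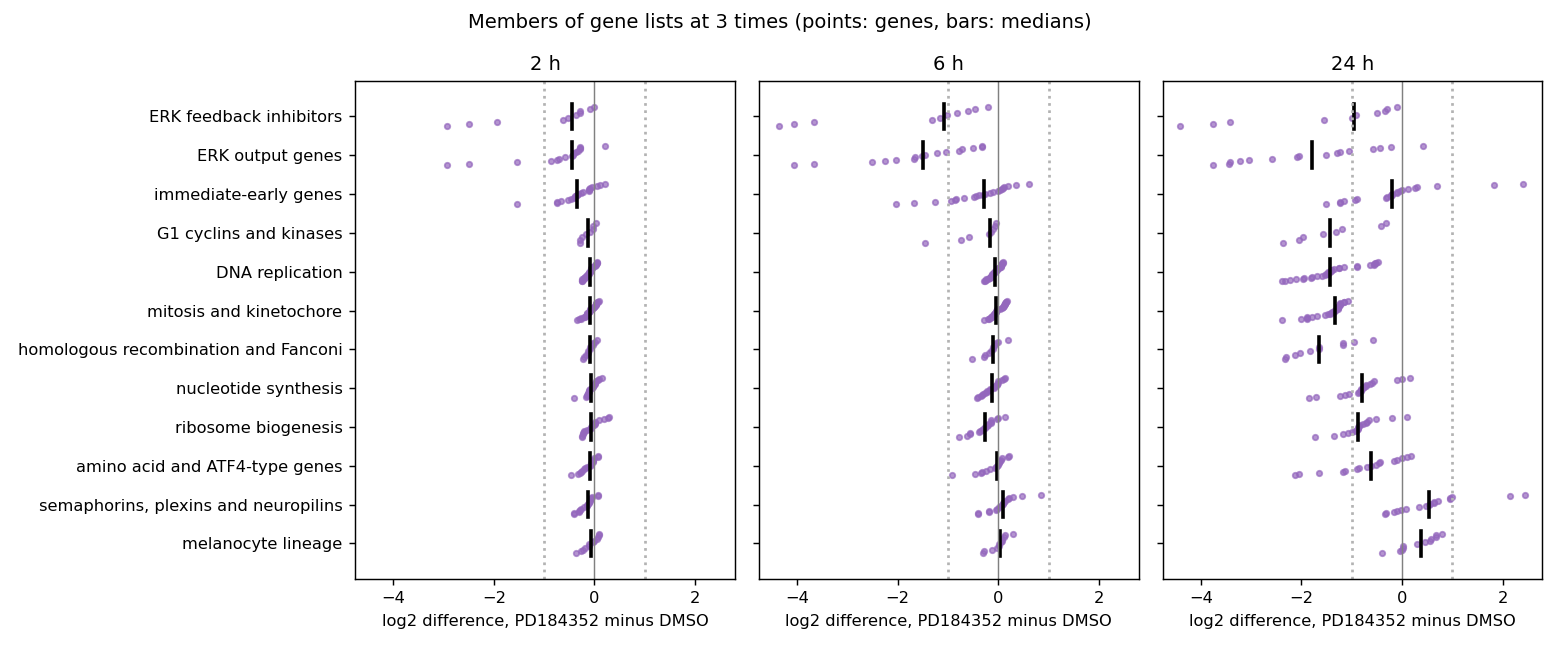
Log2 difference, PD184352 minus DMSO, of each tested member (points) of 12 gene lists at 2, 6 and 24 h, with the list median as a black bar and dotted lines at 2-fold. Feedback and ERK output genes spread to the left from 2 h, while replication and mitosis genes lie near 0 at 2 h and 6 h and near medians of −1.44 and −1.33 at 24 h.

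Promoter sequences were searched because replication and mitosis genes moved together at 24 h. The window was the 250 bases upstream of the RefSeq start (GRCh38.p14), read on both strands, and 10187 of the 12785 genes had one. E2F motifs (TTTCCCGC or TTTGGCGC), bound by the factors of the G1 to S switch, were in 2.8% of all 10187 windows and in 28% of replication genes, 7 of 25. The 25 are all list members with a window, whatever their difference. MCM10, CDC45 and CLSPN, the list's furthest below DMSO at 24 h, had no match. Short of 2-fold, LIG1 (−0.64) and CDT1 (−0.53) had one, and RFC5, POLD1, RPA1 and PRIM2 did not. The CHR motif (TTTGAA or TTCGAA), an element of mitotic promoters, was in 9.55% of all windows and in 50% of mitosis genes, 12 of 24. Other motifs were searched as well. In mitosis genes the E-box (CACGTG) was at 20.8% and the CRE (TGACGTCA) at 12.5%, against 8.83% and 2.75% of all windows. The ETS motif (CCGGAAGT) was at 4.17% against 6.03%. Over all genes first 2-fold lower at 24 h, 6.8% of 294 windows had an E2F match and 22.1% a CHR match. For the genes first lower at 2 h or 6 h it was 0 of 43 for E2F and 18.6% for CHR, and for those first higher at 24 h it was 0 of 132 and 12.9%. These shares are descriptions without a test, and a match is not a binding site shown here.

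The 3 replication genes with an E2F match and the largest 24 h difference, RFC3, POLE and MCM6, carry that match in capitals here, so that its position and surroundings can be read. The windows lie at chr13:33817899-33818148 on the plus strand, at chr12:132687343-132687592 on the minus strand and at chr2:135876444-135876693 on the minus strand, and each is written 5′ to 3′ along its gene up to the base before the start. The match lies 55 to 48 bases before the start in RFC3 and 18 to 11 bases before it in POLE, and MCM6 has 2 matches, at 152 to 145 and 90 to 83 bases before it. Not in capitals are a CRE match in RFC3, 78 to 71 bases before the start, and a CHR match in MCM6, 246 to 241 bases before it.
RFC3: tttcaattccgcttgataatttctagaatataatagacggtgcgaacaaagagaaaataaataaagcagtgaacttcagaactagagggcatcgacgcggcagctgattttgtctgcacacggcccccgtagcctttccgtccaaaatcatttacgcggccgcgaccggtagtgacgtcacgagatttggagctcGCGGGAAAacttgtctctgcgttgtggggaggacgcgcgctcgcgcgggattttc
POLE: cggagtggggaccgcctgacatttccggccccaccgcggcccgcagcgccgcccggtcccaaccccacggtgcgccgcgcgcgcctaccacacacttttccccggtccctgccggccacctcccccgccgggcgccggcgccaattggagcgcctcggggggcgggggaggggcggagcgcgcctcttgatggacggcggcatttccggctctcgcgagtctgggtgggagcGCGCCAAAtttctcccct
MCM6: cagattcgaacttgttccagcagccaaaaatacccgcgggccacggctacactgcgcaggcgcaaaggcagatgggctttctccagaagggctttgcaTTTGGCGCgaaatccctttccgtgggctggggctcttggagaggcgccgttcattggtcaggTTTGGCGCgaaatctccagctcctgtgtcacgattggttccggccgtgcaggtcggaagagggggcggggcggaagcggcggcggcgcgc

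The 3 mitosis genes with a CHR match and the largest 24 h difference were CDK1, KIF11, the motor that separates spindle poles, and TOP2A, the topoisomerase that untangles chromosomes. Their windows are shown in the same way, with the CHR match in capitals, at chr10:60778081-60778330 (plus), chr10:92592880-92593129 (plus) and chr17:40417897-40418146 (minus). The match lies 161 to 156 bases before the start in CDK1 and 28 to 23 bases before it in KIF11, and TOP2A has 2, at 194 to 189 and 151 to 146 bases. At 24 h these genes stood at −2.38, −1.88 and −1.47, and RFC3, POLE and MCM6 at −2.11, −1.81 and −1.68.
CDK1: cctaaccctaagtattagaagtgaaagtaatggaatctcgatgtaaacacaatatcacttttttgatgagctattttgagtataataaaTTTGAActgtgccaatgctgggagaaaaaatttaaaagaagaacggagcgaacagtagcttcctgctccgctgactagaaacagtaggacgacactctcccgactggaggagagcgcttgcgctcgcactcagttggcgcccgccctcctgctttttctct
KIF11: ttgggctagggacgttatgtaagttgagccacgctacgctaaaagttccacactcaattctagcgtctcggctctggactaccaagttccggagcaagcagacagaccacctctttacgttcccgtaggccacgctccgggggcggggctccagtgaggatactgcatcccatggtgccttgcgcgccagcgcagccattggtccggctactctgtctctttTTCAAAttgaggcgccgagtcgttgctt
TOP2A: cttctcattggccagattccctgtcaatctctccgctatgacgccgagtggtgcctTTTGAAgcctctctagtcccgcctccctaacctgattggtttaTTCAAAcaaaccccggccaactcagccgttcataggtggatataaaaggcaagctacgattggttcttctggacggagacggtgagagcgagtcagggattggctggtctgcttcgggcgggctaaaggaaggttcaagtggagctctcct

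**Figure D5:**
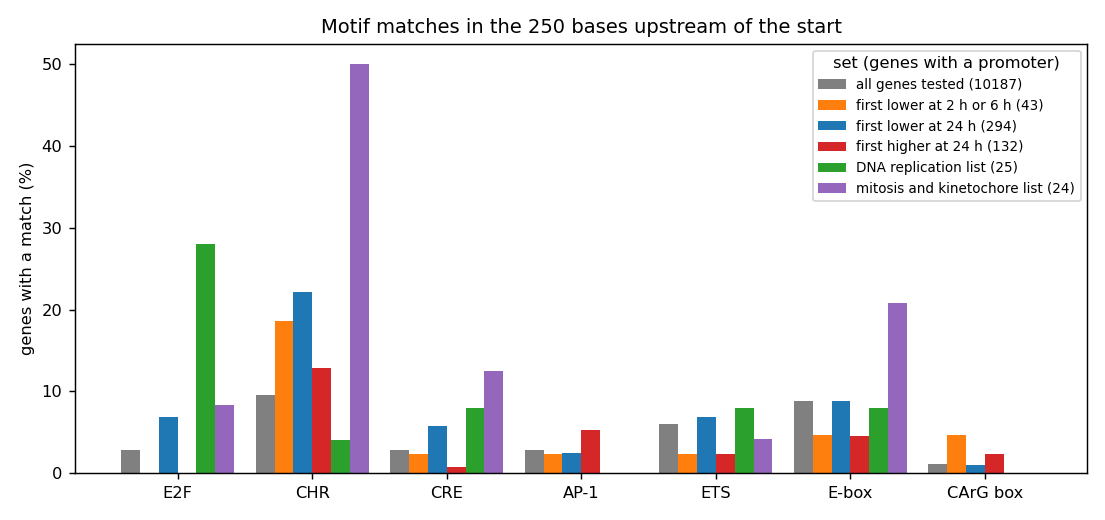
Share of genes (vertical, percent) whose 250 upstream bases hold each motif (horizontal), for all genes tested, for genes by the time they first differed 2-fold and for the replication and mitosis lists; the number of genes with a promoter is in the key. The ATF4 composite motif, in 0.402% of all windows, is not drawn. The replication list stands at 28% for E2F against 2.8% of all genes, and the mitosis list at 50% for CHR against 9.55%.

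Biosynthetic lists differed from each other at 24 h. Of 19 ribosome biogenesis genes tested 16 were at least 1.5-fold lower and 4 at least 2-fold lower, where 8.79% and 3.15% of all genes were, with medians of −0.06, −0.27 and −0.87. LYAR, a nucleolar protein, was at −0.15, −0.63 and −1.72, and RRS1, needed for the large ribosomal subunit, at 0.00, −0.78 and −1.36. At 6 h 2 members were at least 1.5-fold lower, where 1.56% of all genes were. Of 17 amino acid and ATF4-type genes tested, 5 were at least 2-fold lower, where 3.15% of all genes were. The list's median was −0.62, and −0.44 against the mean of the 3 DMSO arrays. SLC7A11, the cystine transporter, stood at 1154, 1203 and 1841 with DMSO and at 1045, 636.3 and 418.2 with PD184352. CHAC1, which degrades glutathione, stood at 388.7, 373.0 and 717.6 against 282.8, 269.2 and 171.7. In both genes the DMSO 24 h array was the highest of the DMSO arrays, which adds to the 24 h difference. Glycolysis and lipid synthesis lists had medians of −0.16 and 0.03 at 24 h, and 8 of 18 lipid synthesis genes were below DMSO. PFKFB3, an activator of glycolysis, was at −0.48, −0.66 and −0.80, and its relative PFKFB2 was at 1.12 at 24 h.

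Immediate-early factors lay on both sides. Of 22 tested, 1, 3 and 4 were at least 2-fold lower at 2, 6 and 24 h, where 0.0391%, 0.422% and 3.15% of all genes were. At 24 h 2 were at least 2-fold higher, where 1.37% of all genes were, and at 2 h and 6 h 0 were, with a 24 h median of −0.20. FOSL1, an AP-1 subunit, stood at 1264, 1264 and 686.9 with DMSO and at 755.8, 397.1 and 290.1 with PD184352, so that its 24 h DMSO array lies below its 2 h PD184352 array. JUN, the partner subunit, stood at 391.9, 420.7 and 399.5 with DMSO and at 325.7, 433.4 and 2124 with PD184352. FOSL2 was at −0.11, 0.60 and 1.83. At 24 h FOSL1 was thus low while JUN and FOSL2 were high. EGR1, a zinc-finger factor named here after its values were seen, was at −0.75, −1.27 and −1.24.

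Other families also held members on both sides. Of the transcription factors known for epithelial to mesenchymal transition, ZEB1 stood at 117.1, 142.0 and 168.2 with DMSO and at 113.8, 88.9 and 64.5 with PD184352, and ZEB2 at 183.0, 192.5 and 179.7 against 235.6, 345.1 and 630.1. The arrays of both are apart, in opposite directions, as are in either direction those of 15.2% of all genes. For ZEB1 the margin was small, 113.8 with PD184352 against 117.1 with DMSO at 2 h. Its DMSO level was highest at 24 h, which adds to the 24 h difference. SNAI1 was at −0.86, −1.21 and −0.98 and PRRX1 at −0.18, −0.47 and −1.14. Of the BCL2 family, PMAIP1, a death-promoting member, stood at 346.6, 347.5 and 369.4 with DMSO and at 214.7, 139.1 and 54.4 with PD184352, opposite to BMF. BCL2 itself was at −0.84 at 24 h. Of the integrins, the collagen receptor subunit ITGA2 stood at 311.3, 413.5 and 321.6 with DMSO and at 261.2, 325.9 and 1923 with PD184352. ITGA9 (−1.78) and ITGB3 (−1.54) were lower at 24 h. Of the receptor tyrosine kinases, ERBB3 (1.06) and the collagen receptor DDR1 (1.24) were higher, and IGF1R (−0.72) and EPHA4 were lower. In the MAPK cascade list, 9 of 18 genes were tested and 0 of the 9 were past 1.5-fold at any time. Of all genes, 8.79% were at least 1.5-fold lower and 4.49% higher at 24 h, so 0 of 9 does not set the list apart. RPS6KA2 was furthest at 24 h at −0.29. The target kinases of PD184352 are not analysed here.

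The highest levels against DMSO were reached late. ANGPTL7, a secreted angiopoietin-like protein, stood at 55.95, 56.88 and 65.16 with DMSO and at 65.49, 71.33 and 1429 with PD184352, a 24 h difference of 4.43. Its 3 DMSO arrays lie under an intensity of 73.1, the mean level below which genes were left out as dim, so the size of the difference rests on a dim control and was 4.15 with a pseudocount of 16. Among the 175 genes at least 2-fold higher at 24 h, 7 had all 3 DMSO arrays under that level. Of the same 175, 3 had the mean of the 8 arrays other than PD184352 24 h under it. Among the 403 genes at least 2-fold lower at 24 h, 30 had their PD184352 24 h array under it. P2RX7, an ATP-gated channel, stood at 236.8, 260.6 and 381.7 against 211.0, 422.8 and 2757. SEMA3D stood at 49.1, 83.3 and 96.95 against 51.75, 150.1 and 534.4. In ANGPTL7, P2RX7 and SEMA3D the 24 h PD184352 array is above every other of the 6 arrays. TP53INP1, a stress-response gene induced by p53, was at 0.05, 0.85 and 2.43. ANK3 (2.29), an adaptor of the membrane skeleton, LRRC15 (2.24) and LINC00518 (2.23) parted mainly at 24 h. Of 175 genes at least 2-fold higher at 24 h, 149 were above DMSO at 6 h and 55 at 2 h. Of the 403 lower genes, 333 were below DMSO at 6 h and 337 at 2 h. Of all genes, 50.9% were below DMSO at 6 h and 61.5% at 2 h.

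Of 18 semaphorins, plexins and neuropilins tested, which guide axons and cells, 8 were at least 1.5-fold higher, where 4.49% of all genes were at 24 h, and 0 were at least 1.5-fold lower. At 6 h it was 1, SEMA3D, where 0.336% of all genes were, and at 2 h 0, where 0.086% were. SEMA3C stood at 547.7, 749.5 and 697.5 with DMSO and at 502.6, 1039 and 3088 with PD184352, SEMA3B was at 0.99 and the receptor PLXNB1 at 0.96. Of 12 melanocyte genes 3 were at least 1.5-fold higher and 0 at least 2-fold higher at 24 h, the Schwann and melanocyte marker S100B (0.80), EDNRB (0.68) and MLANA (0.67), with SOX10 at 0.57 and a list median of 0.37. On the log2 scale MLANA lay between 6.25 and 6.92 over the 6 arrays, near 6.21, the lowest mean level of a gene tested. S100B ran from 7.55 to 9.30 over the 6 arrays, a range wider than its 24 h difference. Of 19 FOXO targets 4 were at least 2-fold higher, among them CITED2, SESN3 (1.18) and TXNIP (1.13), a brake on glucose uptake, where 1.37% of all genes were. The list lay on both sides, with 6 of the 19 below DMSO and 2 at least 1.5-fold lower, TRIB1 among them. Of 17 p53 targets TP53INP1 was the single member past 2-fold, with TP53I3 at 0.91 and PLK2 at 0.83. Of 18 lysosomal genes 2, CTSK (0.93) and CTSA (0.60), were at least 1.5-fold higher.

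Large 24 h differences downward outside the listed pathways were those of LPL, MRGPRX4, MRGPRX3, TM4SF1 and HAPLN1. LPL, lipoprotein lipase, stood at 1038, 923.6 and 977.3 with DMSO and at 839.3, 556.6 and 96.1 with PD184352. MRGPRX4, a sensory receptor gene, stood at 396.4, 405.5 and 359 with DMSO and at 285.8, 224.8 and 43.85 with PD184352, and its close paralog MRGPRX3 had differences of −0.23, −0.24 and −2.87. Whether probes of these paralogs share signal was not tested. TM4SF1, a tetraspanin-like surface protein, was at −0.42, −1.14 and −3.06, and HAPLN1, a hyaluronan link protein, at −0.18, −0.29 and −2.79. The histone gene H1-5 was at −0.40, 0.11 and −2.52, and cross-signal between histone genes was likewise not examined. Secreted and matrix genes held both directions: VEGFA was at −0.998, the chemokine CCL2 at 1.52, COL5A2 at 1.33, the proteases MMP16 at −1.75 and MMP15 at 1.41, the plasminogen activator PLAT at −1.59, the ecto-enzyme NT5E at −1.38 and CCN3 at 2.17, all at 24 h.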

How the data were processed

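Gene-level exon array intensities of A375P cells were deposited as a table of 9 columns. The deposited intensity values are on a linear scale and are positive on every array. Per the submitters' processing notes, RMA, limma and R 2.8.0 were used, without role or order. The genome build and the place of the stated triplicates are not given in the sources used here. No normalization was added. Of 35446 rows, 19380 name 1 gene in the platform table, 3339 several, and 12727 are not in it. Identifiers of 19325 rows matched RefSeq, and 0 symbols changed. For the 1794 genes with several rows the brightest by the mean over all 9 arrays was used, and genes were ranked as dim by the same mean. The dimmest 25% (4262 of 17047) were left out, and no pair of columns held identical values (0 pairs).

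Differences are on log2(value + 1). The test over 3 times used limma 3.58.1 in R 4.3.3 on all 9 arrays, with treatment and a time block (4 residual degrees of freedom). It was checked on simulated data whose differences were alike at all 3 times, so the check does not cover differences that vary with time. No array has a replicate, so single times have no test. For arrays, their number limits the precision. Named genes are those called, the 10 largest each way at each time past 2-fold, all feedback genes, up to 4 of each of 30 lists by 24 h difference, and up to 8 per class of onset. The comparison and lists were chosen with earlier results of these data known.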

Additional observations from a re-analysis of the deposited data

Results flagged for a closer look

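The difference from DMSO changed sign between times for 6 genes, each past 1.5-fold below DMSO at an earlier time and past 1.5-fold above it at 24 h. With 1 array per point the difference between times was not tested. LINC00342 was at −0.92 at 2 h and 1.44 at 24 h, and its DMSO arrays went from 194.9 to 117.3 and 77.95. IL17RA was at −0.81 at 2 h and 0.73 at 24 h, with DMSO at 139.6, 132.9 and 94.36. DACT1 was at −0.75 at 2 h and 0.74 at 24 h, with DMSO at 455.4, 351.9 and 217.3. MRPL20 was at −1.28 at 6 h and 0.81 at 24 h, with DMSO at 142.1, 197.9 and 91.78. CIITA, the regulator of class II antigen presentation, was at −0.97 at 6 h and 0.60 at 24 h, and ANKRD1, a YAP target, at −0.78 at 6 h and 0.66 at 24 h. In LINC00342, IL17RA, DACT1, MRPL20 and CIITA the DMSO level was lowest at 24 h. Against the mean of the 3 DMSO arrays the 24 h difference was 0.80 for LINC00342, 0.38 for IL17RA, 0.15 for DACT1, 0.23 for MRPL20, 0.50 for CIITA and 0.62 for ANKRD1, so that LINC00342 and ANKRD1 alone stayed past 1.5-fold above DMSO.

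Rows that name no gene or several genes also held a signal that no comparison here uses. Of 2294 rows with several symbols as bright as the genes tested, 74 were at least 2-fold from DMSO at 24 h (52 lower, 22 higher), against 3 between DMSO at 24 h and 2 h. Of 5061 such rows outside the platform table, 109 were (46 lower, 63 higher), against 10 between the DMSO arrays.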

How the results depend on the processing

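The count of genes called over the 3 times by limma, 6, was 1 with no filter on dim genes, 14 with the lowest 50% left out, 0 after quantile normalization (1934 at an unadjusted p below 0.05) and 0 with the 6 DMSO and PD184352 arrays alone (1467). Leaving out each array in turn gave 0 to 388. A pseudocount of 16 and the mean of all rows of a gene gave 6, and no time block gave 9. The count at 2 h, 5, became 14 with no filter on dim genes, of which 8 were lower. The 2 h count under the other alternatives and the total counts at 6 h and 24 h stayed within 1.5 times. Of the 6 h count, the genes that were higher, 5, were 10 with no filter on dim genes, 8 against the mean of the 3 DMSO arrays and 3 with the lowest 50% left out. The 24 h count ran from 494 to 620 and the share of lower genes in it from 62.2% to 74.3%. The 10 lists with a median past 1.5-fold at 24 h kept their direction in 4 alternatives. Their number past 1.5-fold was 8 with the mean of all rows and 9 against the mean of the 3 DMSO arrays. The amino acid list, at −0.62, was then at −0.53 and −0.44, and at −0.54 after quantile normalization, where the semaphorin list (0.54, then 0.59) passed in its place, and the E2F list, at −0.74, was at −0.56 with the mean of all rows. Direction was also kept by the 89 named genes past 2-fold (87 could be compared with the mean of all rows). The alternatives for arrays that do not overlap were chosen after seeing the data, and gave 1680 genes after quantile normalization and 2403 with no filter on dim genes, against 1949.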
